A study of Mus musculus with 8 samples.

Results

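The genes of respiratory complex I were compared between the left ventricles of mice infused with angiotensin II (ANG II), a peptide hormone that raises blood pressure, and those of saline-infused controls. Members were chosen by name alone, as the rows of the deposited FPKM table whose symbol begins with Ndufa, Ndufb, Ndufc, Ndufs, Ndufv or Ndufaf and does not hold -ps. This gave 49 of 55679 rows, of which 41 carry the name of a subunit and 8 that of an assembly factor (Ndufaf). The rule passes over Ndufb1-ps and Ndufab1-ps, and the former is the row under which the table holds the gene of subunit B1. FPKM is a number of sequenced fragments divided by the length of the transcript and by the depth of the library, so it can be compared between genes of different length. The 8 libraries came from male wild-type C57BL/6J mice with an osmotic mini-pump under the skin, which delivered saline (4 control libraries) or ANG II at 1500 ng/kg/min (4 ANG II libraries) for 7 days, and the labels do not say whether each library is 1 mouse. By their labels the libraries are of left ventricle, taken after the heart had been flushed with saline, and such whole tissue holds all its cell types. The RNA extraction text in the labels instead speaks of CRC cells, whereas all cardiomyocyte markers searched were detected, as given below.

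Complex I is the largest enzyme of the mitochondrial respiratory chain. It takes electrons from NADH, passes them along a chain of iron-sulfur clusters to ubiquinone and uses the energy to pump protons across the inner membrane. Its core subunits, shared with bacteria, carry out catalysis: some are encoded in the nucleus and make up the arm that reaches into the matrix, and the others are encoded in mitochondrial DNA and make up the proton-pumping membrane arm. Accessory subunits surround the core and are needed for assembly and stability, whereas assembly factors help to build the enzyme but are not part of it. The heart muscle cell, which is packed with mitochondria, is among the cells richest in complex I.

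Before the members are described, a few facts of the libraries bear on them. The libraries held 14455654 to 16564828 fragments. The share of fragments from mitochondrially encoded genes was 26.5 ± 0.303% (SD, n = 4) for the controls and 19.97 ± 1.25% (SD, n = 4) for the ANG II libraries (exact permutation test, two-sided, p = 0.0286, the lowest value that 4 against 4 libraries allow). Over the 19364 genes tested with limma, the median log2 fold change (ANG II minus control, on log2(FPKM + 1)) was 0.15, so that a member at 0 lay below the middle of all genes. At an adjusted p under 0.05, 4.91% of all genes tested were lower and 28.4% higher in ANG II. The library ANG II 3 stood apart when each library was compared with the median of the others of its group. Its transcripts under 700 bases lay above that median, with a median log2 difference of 0.20 over 438 genes. Those of 1500 bases or more lay below it, with a median of -0.054 over 5452 genes. For the short transcripts the controls ran from -0.12 to 0.11 and the other ANG II libraries from -0.094 to 0.0012. Many complex I subunits have short transcripts, so the main counts are also given without ANG II 3. All 15 cardiomyocyte markers were detected, and their summed level was 63731 to 64880 FPKM in the controls and 50666 to 53288 FPKM with ANG II. The single markers did not all move the same way, as given below. Fibroblast markers summed to 1230 to 1702 FPKM in the controls and 3610 to 4066 FPKM with ANG II, and macrophage markers to 297 to 374 and 674 to 940 FPKM. The part of this shift in the results below was not tested, and in bulk tissue fewer cells of a type and less RNA per cell cannot be told apart.

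In control ventricles the complex I genes were abundant: 29 of the 41 subunit genes had a mean over 100 FPKM, and 4 had a mean under 20 FPKM. Of the 41 subunit genes, 40 were tested. With ANG II, 12 of these 40 were lower at an adjusted p under 0.05 (against 4.91% of all genes tested) and 0 were higher, against 28.4% of all genes. The subunits had a median log2 fold change of -0.096, or -0.24 relative to all genes tested, with 28 of the 40 below 0. Without ANG II 3 this median was -0.19, and under median-of-ratios scaling, described below, it was -0.31. On the deposited scale none passed the study's fold threshold as well, an absolute log fold change above 0.5, taken here as log2. Limma called 0 subunits lower (1.41% of all genes) and 0 higher (14.0% of all genes), while under median-of-ratios scaling 10 were called lower (4.15% of all genes). At an unadjusted p under 0.05 there were 14 of the 40, below the 43% of all genes tested, of which 12 were lower (7.09% of all genes) and 2 higher (35.9% of all genes). When limma's voom was run on the fragments recovered from the FPKM steps, the same 12 were lower (5.11% of all genes), 0 were higher and 0 were called lower (2.03% of all genes). In 12 subunits all 4 ANG II libraries lay below all 4 controls (5.06% of all genes tested), and in 1, Ndufs5, all lay above (28.7% of all genes tested). The 12 subunits that passed as lower also did so in each of the 20 alternatives run, with others beside them in some.

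**Figure D1:**
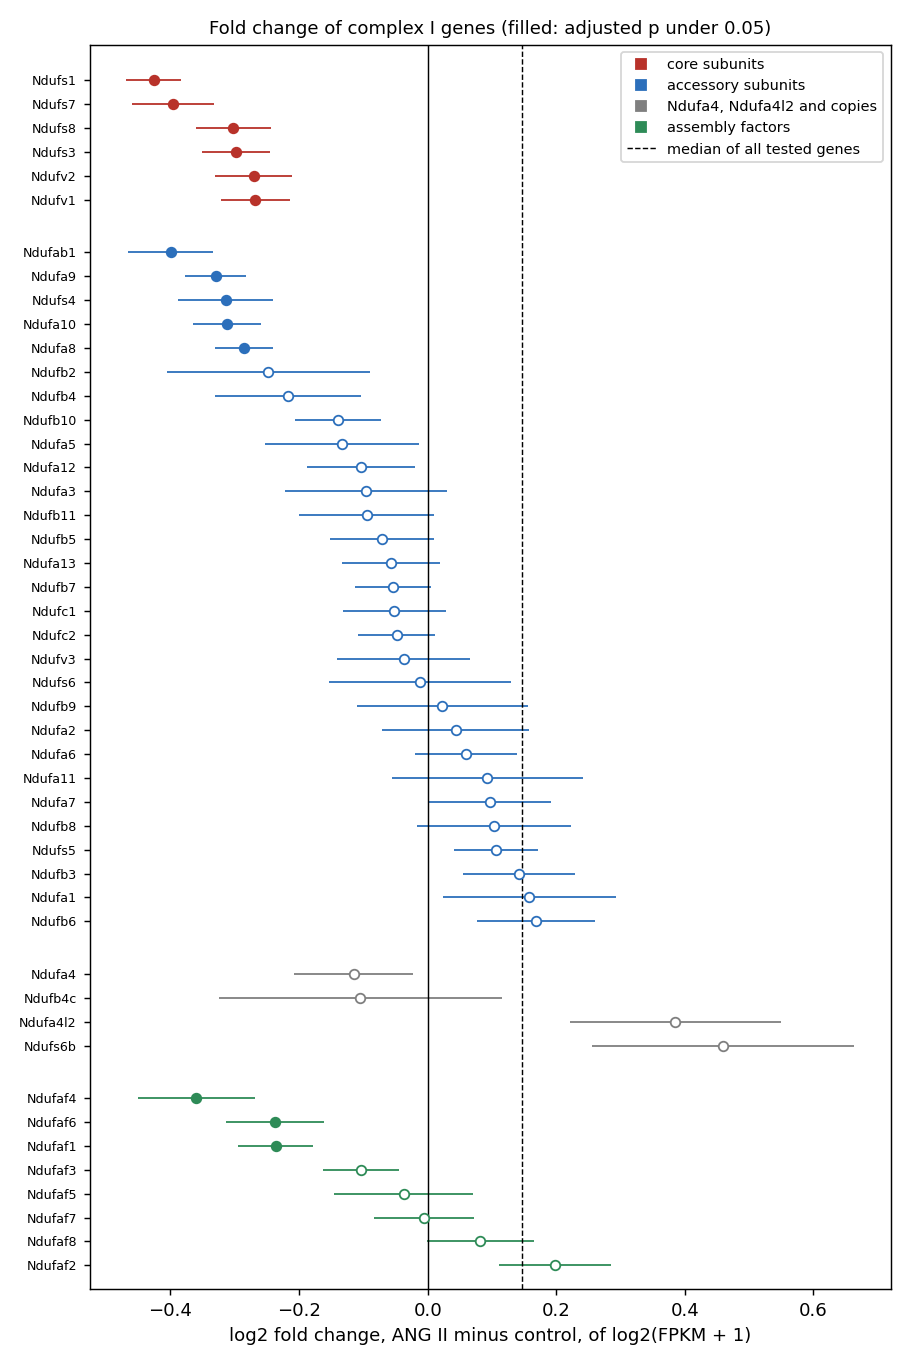
Log2 fold change of the complex I genes tested, 6 of the core subunits among them (x axis, ANG II minus control, on log2(FPKM + 1); bars are standard errors, n = 4 per group), by group and in order of size within it (y axis). Filled points passed at an adjusted p under 0.05, and the dashed line is the median of all tested genes at 0.15. All 6 core subunits drawn are filled and lie left of 0, while the accessory subunits spread from -0.40 to 0.17.

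All 7 nuclear-encoded core subunits were lower in ANG II, at a median log2 fold change of -0.30. On the deposited scale 0 of them were called. Under median-of-ratios scaling the median was -0.53 and 5 of the 7 were called. Their summed level was 3005 to 3184 FPKM in the controls and 2444 to 2555 FPKM with ANG II, and the mean of this sum fell by 20.1%. Ndufs1 (ENSMUSG00000025968, chr1:63143596-63176833; positions here are from GENCODE M21, GRCm38), the large iron-sulfur subunit that carries electrons away from the NADH site, had 485, 477, 485 and 466 FPKM in control 1 to 4 and 347, 353, 369.8 and 353 FPKM in ANG II 1 to 4. Every ANG II library lay below every control, and the mean fell by 25.6%, with a log2 fold change of -0.43 (SE 0.043, adjusted p = 9.11e-05), the lowest log2 fold change among the subunits. Ndufv1 (ENSMUSG00000037916, chr19:4007384-4012806), which binds NADH and the flavin that accepts its electrons, had 515, 546, 504 and 487 FPKM in control 1 to 4 and 403, 442, 417 and 441 FPKM in ANG II 1 to 4. The groups did not overlap here either, with a log2 fold change of -0.27 (SE 0.054, adjusted p = 0.00417). For Ndufv2 (ENSMUSG00000024099, chr17:66078638-66101559), the partner of Ndufv1 with an iron-sulfur cluster of its own, the values were 399.7, 393, 403 and 368 FPKM in control 1 to 4 and 321, 327, 352 and 297 FPKM in ANG II 1 to 4. ANG II 3 was the highest ANG II library and still lay below control 4, the lowest control, with a log2 fold change of -0.27 (SE 0.06, adjusted p = 0.00669).

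The other core subunits carry the electrons on to ubiquinone, and 3 of them are described. Ndufs7 (ENSMUSG00000020153, chr10:80249121-80256794) holds the last iron-sulfur cluster before ubiquinone, and it had 355, 377, 354 and 341 FPKM in control 1 to 4 and 275, 297, 244 and 269 FPKM in ANG II 1 to 4. ANG II 3 was the lowest of all 8 libraries for this gene, and the mean fell by 23.9%, with a log2 fold change of -0.40 (SE 0.064, adjusted p = 0.00121). Ndufs8 (ENSMUSG00000059734, chr19:3908863-3912774), a ferredoxin-like subunit, had 235, 232, 223 and 206 FPKM in control 1 to 4 and 196, 174, 180.1 and 176 FPKM in ANG II 1 to 4. Again no ANG II library reached the lowest control, with a log2 fold change of -0.30 (SE 0.058, adjusted p = 0.00322). Ndufs3 (ENSMUSG00000005510, chr2:90894634-90904827), a subunit of the matrix arm, had 339.6, 347, 333 and 334 FPKM in control 1 to 4 and 266, 279, 298 and 259 FPKM in ANG II 1 to 4. ANG II 3 was the highest ANG II library for it, below all controls, with a log2 fold change of -0.30 (SE 0.052, adjusted p = 0.00195). Of the 50-base words in Ndufs3 transcripts, 17.9% also occur in other genes, mostly Gm12251, so its reads could have been split. For each of the 7 core genes the exact two-sided permutation test over libraries gave p = 0.0286.

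**Figure D2:**
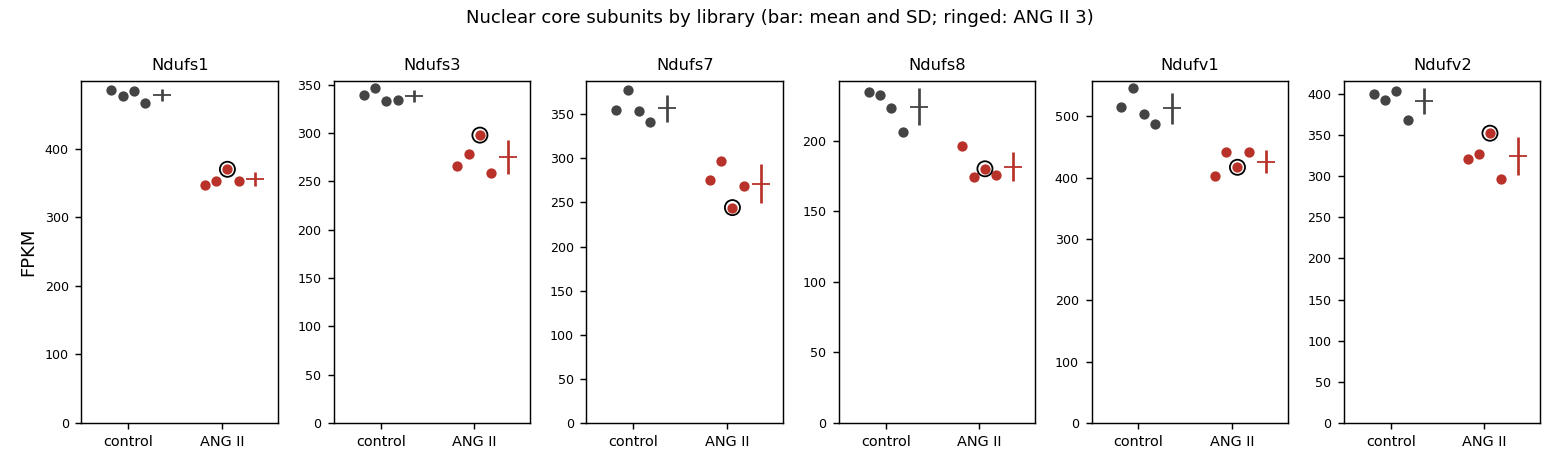
FPKM (y axis, from 0) of 6 nuclear core subunits in each control and ANG II library (x axis), with the mean and SD of each group beside the points and ANG II 3 ringed. In every panel the 4 ANG II points lie below the 4 controls.

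To show the DNA at the start of some of these genes, promoter windows of 250 bases before to 50 bases after the start were taken from RefSeq (GRCm38.p6), in which 40 of the 49 members were found by symbol. Those not matched included Ndufa11b, Ndufa2, Ndufa4l2, Ndufaf6, Ndufb4c, Ndufb9, Ndufs1 and Ndufs6b. On both strands, 4 motifs of factors linked to mitochondrial genes were searched: CCGGAAG (bound by the ETS factor GABP), gcgca and gcgc with 1 base of any kind between them (NRF1), AAGATGG (YY1) and AAGGTCA (estrogen-related receptors). Each motif was counted by itself, whether or not it overlapped another. The NRF1 motif lay in 9 of the 40 members' windows (22.5%, against 4.60% of all 32851 promoters in the table), that of YY1 in 8 (20%, against 6.34%), that of ETS in 6 (15%, against 8.86%) and that of estrogen-related receptors in 3 (7.5%, against 4.72%). Of the 15 members that passed lower, 12 had a window, and 3 of these held the ETS motif, 2 that of NRF1, 3 that of YY1 and 0 that of estrogen-related receptors. A match is a description of letters and not of binding. The 3 core subunits with a match are shown, 5′ to 3′ on the gene's own strand, with the motif in capitals, Ndufs3 (chr2:90904672-90904971, minus strand) with the ETS motif at 2 places, Ndufs8 (chr19:3912725-3913024, minus strand) with it at 1, and Ndufs7 (chr10:80249199-80249498, plus strand) with the YY1 motif.
Ndufs3: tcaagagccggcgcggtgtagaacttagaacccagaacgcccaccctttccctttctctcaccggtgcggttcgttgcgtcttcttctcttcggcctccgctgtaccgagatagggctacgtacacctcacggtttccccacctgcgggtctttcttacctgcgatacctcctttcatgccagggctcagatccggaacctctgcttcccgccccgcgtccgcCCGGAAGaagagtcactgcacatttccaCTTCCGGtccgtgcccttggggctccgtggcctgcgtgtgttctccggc
Ndufs8: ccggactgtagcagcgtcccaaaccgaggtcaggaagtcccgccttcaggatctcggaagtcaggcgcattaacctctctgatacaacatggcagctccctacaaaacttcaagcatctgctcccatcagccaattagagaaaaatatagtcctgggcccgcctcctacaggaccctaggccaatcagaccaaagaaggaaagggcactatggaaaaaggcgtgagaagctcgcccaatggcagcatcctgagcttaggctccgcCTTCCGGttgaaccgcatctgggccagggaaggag
Ndufs7: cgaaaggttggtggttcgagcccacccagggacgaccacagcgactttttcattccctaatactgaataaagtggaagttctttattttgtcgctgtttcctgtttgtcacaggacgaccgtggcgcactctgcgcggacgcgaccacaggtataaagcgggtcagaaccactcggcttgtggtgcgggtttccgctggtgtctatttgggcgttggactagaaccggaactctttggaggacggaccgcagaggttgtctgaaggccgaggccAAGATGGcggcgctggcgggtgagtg

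Among the 29 accessory subunits, 5 were lower in ANG II (4.91% of all genes tested) and 0 were higher (28.4% of all genes). Their median log2 fold change was -0.054. Without ANG II 3, 10 were lower (4.58% of all genes), with a median of -0.14. Under median-of-ratios scaling, described below, 15 were (13.1% of all genes), with a median of -0.28. On the deposited scale, of the 5, 4 were among the 13 accessory Ndufa genes and 1 among the 4 named Ndufs or Ndufv. Of the 12 Ndufb and Ndufc genes 0 passed in either direction, and 0 of 12 lower is near the 4.91% of all genes. With ANG II 3 left out, 7 of the 13 and 2 of the 12 were lower, and under median-of-ratios scaling 7 and 7. Ndufab1 (ENSMUSG00000030869, chr7:122085403-122101886), the mitochondrial acyl carrier protein, which also serves fatty acid synthesis and iron-sulfur cluster assembly, had 76.1, 68.5, 72.9 and 73.3 FPKM in control 1 to 4 and 50.5, 60.2, 51.5 and 57.7 FPKM in ANG II 1 to 4. No ANG II library reached the lowest control, and the mean fell by 24.4%, with a log2 fold change of -0.40 (SE 0.066, adjusted p = 0.00133). Ndufa9 (ENSMUSG00000000399, chr6:126821721-126849136), which holds NADPH near the junction of the 2 arms, had 279.7, 266, 273 and 262 FPKM in control 1 to 4 and 208, 217, 227 and 208 FPKM in ANG II 1 to 4. The groups did not overlap, with a log2 fold change of -0.33 (SE 0.047, adjusted p = 0.000598). Ndufs4, a subunit added late to the NADH end of the enzyme and whose loss causes a Leigh-like disease in mice, had 160.2, 178, 167 and 164 FPKM in control 1 to 4 and 129, 123, 156 and 131 FPKM in ANG II 1 to 4. ANG II 3 lay closest to the controls, below the lowest of them, with a log2 fold change of -0.31 (SE 0.074, adjusted p = 0.00909). Ndufa10, a relative of nucleoside kinases, had 577, 582, 623 and 590.1 FPKM in control 1 to 4 and 464, 516, 462 and 469 FPKM in ANG II 1 to 4, and a log2 fold change of -0.31 (SE 0.053, adjusted p = 0.00165). In this gene ANG II 2, not ANG II 3, stood above the other treated libraries. Ndufa8, a small twin-cysteine protein of the intermembrane space, had 246, 261, 249 and 237 FPKM in control 1 to 4 and 198, 203, 208 and 205 FPKM in ANG II 1 to 4, with a log2 fold change of -0.29 (SE 0.045, adjusted p = 0.00102). Its ANG II libraries lay close together and well below the controls. Each of these 5 genes gave p = 0.0286 in the exact two-sided permutation test.

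The other 24 accessory subunits did not pass in either direction, and in most of them ANG II 3 lay apart from the other treated libraries. It was the highest ANG II library in 26 of the 29 accessory subunits, against 3 of the 7 core subunits. The summed accessory level was 4452 to 4795 FPKM in the controls and 5100 FPKM in ANG II 3, but 4020 to 4193 FPKM in the other ANG II libraries. The ratio of the summed core to the summed accessory level was 0.653 to 0.678 in control and 0.490 to 0.609 in ANG II. Ndufa5, a small matrix-arm subunit, had 332, 309.7, 309 and 279.5 FPKM in control 1 to 4 and 249, 249.5, 369.7 and 266 FPKM in ANG II 1 to 4. Its ANG II libraries 1, 2 and 4 lay below all controls and ANG II 3 lay above all of them, with a log2 fold change of -0.13 (SE 0.12, adjusted p = 0.43), or -0.27 without ANG II 3. Ndufb10, a twin-cysteine subunit of the membrane arm, showed the same order, with 478, 475, 468 and 457 FPKM in control 1 to 4 and 392, 421, 488 and 410.4 FPKM in ANG II 1 to 4 and a log2 fold change of -0.14 (SE 0.067, adjusted p = 0.144). In 13 of the 29 accessory subunits ANG II 1, 2 and 4 were all below all 4 controls. The share of all genes with this order was not computed, so the count cannot be set against it. Without ANG II 3, 18 of the 40 subunits were lower (4.58% of all genes tested) and 0 were higher (26.7% of all genes). The 6 that were added were Ndufa12, Ndufa3, Ndufa4, Ndufa5, Ndufb10 and Ndufb4, and the median over the 40 was -0.19.

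The remaining accessory subunits, chosen for mention after their values were seen, lay between these ends. Ndufb4, Ndufb11 and Ndufb5 of the membrane arm had log2 fold changes of -0.22, -0.095 and -0.071, and without ANG II 3 -0.34, -0.20 and -0.15. Ndufb4 had 57.1, 49.7, 51.2 and 49 FPKM in control 1 to 4 and 39.4, 41.7, 57.8 and 40.5 FPKM in ANG II 1 to 4. ANG II 3 was the highest of all 8 libraries for it, and the other ANG II libraries lay below all controls. Ndufa12, a late-added subunit at the NADH end, and Ndufa3, a small membrane subunit, had -0.10 and -0.096, and without ANG II 3 -0.19 and -0.23. Ndufa13, also known as GRIM-19, had -0.057, or -0.11 without ANG II 3, but 28.5% of its 50-base words are shared with other genes, mostly Tssk6. Ndufb7, Ndufc1 and Ndufc2 lay at -0.054, -0.052 and -0.048, and Ndufv3, a small protein of the flavoprotein part, at -0.037. Leaving ANG II 3 out, these 4 lay at -0.089, -0.11, -0.10 and -0.14. Ndufs6, a zinc-binding subunit, had 163, 159, 149 and 141 FPKM in control 1 to 4 and 129.6, 138, 215 and 138 FPKM in ANG II 1 to 4. Its ANG II 3 was the highest of all libraries and the other ANG II libraries lay below all controls, with a log2 fold change of -0.011 (SE 0.14, adjusted p = 0.963), and without ANG II 3 the log2 fold change was -0.18. The last of them, Ndufb9, Ndufa2, Ndufa6, Ndufa11, Ndufa7 and Ndufb8, had log2 fold changes from 0.023 to 0.10. Under median-of-ratios scaling all 6 were below 0, and so were all but Ndufa7 without ANG II 3. Ndufb8, a membrane-arm subunit, had 162, 161, 154 and 146 FPKM in control 1 to 4 and 150.3, 150.4, 225 and 154 FPKM in ANG II 1 to 4, with ANG II 3 above all other libraries and the rest overlapping.

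**Figure D3:**
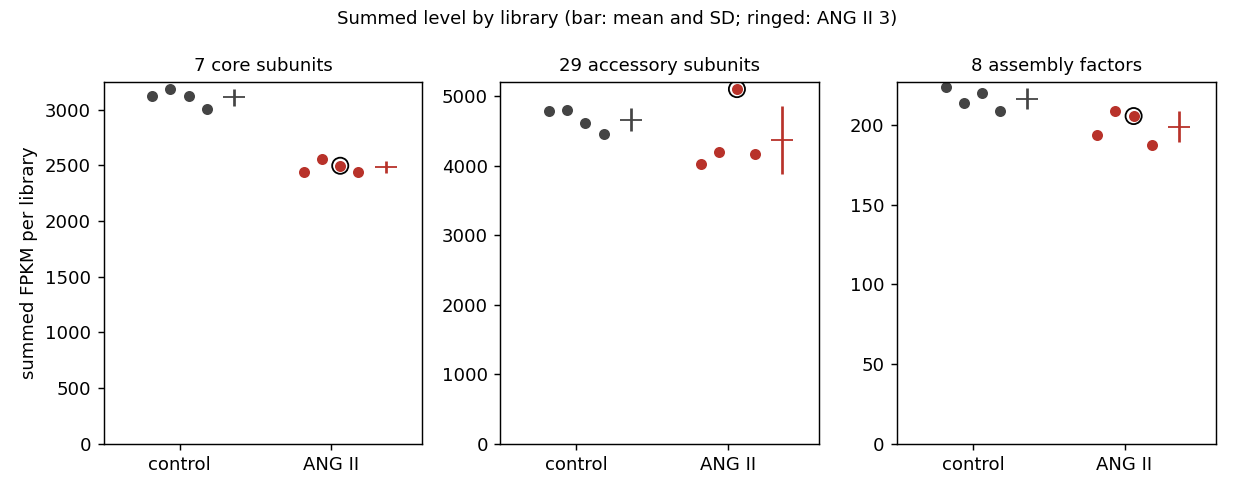
Summed FPKM (y axis, from 0) of the 7 core subunits, the 29 accessory subunits and the 8 assembly factors in each library (x axis), with the mean and SD of each group and ANG II 3 ringed. The core sums of the groups are apart, whereas for the accessory subunits ANG II 3, at 5100 FPKM, lies above all controls and the other ANG II libraries lie below them.

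The highest log2 fold changes among the accessory subunits did not pass. Ndufb6, of the membrane arm, had 62.5, 67.3, 59.9 and 60.3 FPKM in control 1 to 4 and 63.4, 64.9, 86.2 and 68.9 FPKM in ANG II 1 to 4, with a log2 fold change of 0.17 (SE 0.092, adjusted p = 0.192). A gene on the other strand covers 39% of its exons, and 31.6% of its 50-base words are shared with Smim27, so reads of these genes could have been mixed. Ndufa1, an X-linked single-pass membrane subunit, had 128, 133, 116 and 122 FPKM in control 1 to 4 and 122, 124, 194 and 127 FPKM in ANG II 1 to 4, with a log2 fold change of 0.16 (SE 0.13, adjusted p = 0.405). Apart from ANG II 3 its libraries overlapped, and without that library the log2 fold change was -0.00098. Ndufb3, another membrane-arm subunit, had 123, 120.2, 113 and 112 FPKM in control 1 to 4 and 115, 124, 156 and 126 FPKM in ANG II 1 to 4, with a log2 fold change of 0.14 (SE 0.087, adjusted p = 0.243). Its groups overlapped as well. Ndufb6 and Ndufb3 had log2 fold changes of 0.072 and 0.052 when ANG II 3 was left out. Under median-of-ratios scaling, described below, these 3 genes had a log2 fold change below 0. Ndufs5, a twin-cysteine subunit, had 154, 152, 154 and 153 FPKM in control 1 to 4 and 156, 157, 191 and 159.6 FPKM in ANG II 1 to 4. All ANG II libraries lay above all controls, ANG II 1 by a narrow margin, with a log2 fold change of 0.11 (SE 0.066, adjusted p = 0.25). Its exact two-sided permutation test gave p = 0.0286. The log2 fold change was 0.037 without ANG II 3, and under median-of-ratios scaling it was -0.12. At the low end of the levels, Ndufb2 had 3.93, 2.68, 2.41 and 2.51 FPKM in control 1 to 4 and 3.11, 1.96, 1.9 and 2.1 FPKM in ANG II 1 to 4, and its groups overlapped. The next lowest Ndufb subunit per length, leaving aside the copy Ndufb4c, was Ndufb9, with a control mean of 25.1 FPKM.

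Several members bear a complex I name but have another role or are copies of other members. Ndufa4, first taken for a complex I subunit and since assigned to cytochrome c oxidase (complex IV), had 761, 739, 673 and 697 FPKM in control 1 to 4 and 599, 616, 805 and 647 FPKM in ANG II 1 to 4. ANG II 3 was the highest of all 8 libraries and the other ANG II libraries lay below all controls, with a log2 fold change of -0.12 (SE 0.092, adjusted p = 0.379), or -0.21 without ANG II 3. Its paralogue Ndufa4l2, a gene induced by low oxygen, had 23.1, 27.7, 16.5 and 20.2 FPKM in control 1 to 4 and 33.2, 23.5, 33.6 and 24.8 FPKM in ANG II 1 to 4. Control 2 lay above ANG II 2 and ANG II 4, so that the groups overlapped, with a log2 fold change of 0.39 (SE 0.16, adjusted p = 0.0999). Its log2 fold change was 0.16 under median-of-ratios scaling and 0.31 without ANG II 3, and with each library left out it ran from 0.26 to 0.50, being called only without control 2. Ndufs6b, a copy of Ndufs6 with which it shares 25.4% of its 50-base words, was listed at 0.596, 0.787, 0.347 and 0.188 FPKM in control 1 to 4 and 1.9, 1.08, 0.76 and 0.54 FPKM in ANG II 1 to 4. These values stand for 1 to 10 fragments a library and overlapped, with a log2 fold change of 0.46 (SE 0.20, adjusted p = 0.113). Ndufb4c shares all of its words with Ndufb4 and had 3.37, 3.86, 5.42 and 2.68 FPKM in control 1 to 4 and 3.89, 1.93, 4.41 and 3.85 FPKM in ANG II 1 to 4, without separation of the groups. Ndufa11b, a copy of Ndufa11, was not tested, since it was listed at 0 in 7 libraries and at 0.148 FPKM, 1 fragment, in ANG II 4.

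Of the 8 assembly factors, 3 were lower at an adjusted p under 0.05 (4.91% of all genes tested) and 0 were higher (28.4% of all genes). Limma called 0 of them past the fold threshold in either direction, while under median-of-ratios scaling 1, Ndufaf4, was called, and the median log2 fold change was -0.29. At an unadjusted p under 0.05 there were 4 of the 8, near the 43% of all genes tested, of which 3 were lower and 1 higher. With ANG II 3 left out, 2 were lower. With voom, 2 were lower and 0 higher, and 0 were called. On the deposited scale their median log2 fold change was -0.070 and their summed level was 209 to 224 FPKM in the controls and 188 to 209 FPKM with ANG II. Ndufaf4 (ENSMUSG00000028261, chr4:24898083-24905001), which works with Ndufaf3 on the early matrix-arm intermediate, had 39.2, 34.2, 38.5 and 32.6 FPKM in control 1 to 4 and 23.8, 28.6, 31.5 and 28 FPKM in ANG II 1 to 4. ANG II 3 came nearest to the controls without reaching them, and the mean fell by 22.6%, with a log2 fold change of -0.36 (SE 0.091, adjusted p = 0.0127). Its promoter window (chr4:24897833-24898132, plus strand) is shown since it held the NRF1 motif, in capitals.
Ndufaf4: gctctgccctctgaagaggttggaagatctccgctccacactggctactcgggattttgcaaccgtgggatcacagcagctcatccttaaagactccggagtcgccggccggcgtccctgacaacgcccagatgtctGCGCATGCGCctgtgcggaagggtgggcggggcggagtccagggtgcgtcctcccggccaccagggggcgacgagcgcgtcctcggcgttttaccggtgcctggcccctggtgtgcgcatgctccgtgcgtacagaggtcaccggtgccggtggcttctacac

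Ndufaf1 (ENSMUSG00000027305, chr2:119655446-119662827), part of the complex with Ecsit and Acad9 that builds the membrane arm, had 47.5, 45.7, 46.6 and 47.6 FPKM in control 1 to 4 and 40.6, 43.2, 38.9 and 36.2 FPKM in ANG II 1 to 4. The controls lay close together and above every ANG II library, with a log2 fold change of -0.24 (SE 0.058, adjusted p = 0.0114). For both Ndufaf4 and Ndufaf1 the exact two-sided permutation test gave p = 0.0286. Ndufaf6 (ENSMUSG00000050323, chr4:11051045-11076205), needed early for the membrane subunit ND1, had 25.2, 20.9, 25.4 and 24.4 FPKM in control 1 to 4 and 19.5, 21.9, 18.8 and 20.3 FPKM in ANG II 1 to 4. Control 2 lay below ANG II 2, so that the groups overlapped, with a log2 fold change of -0.24 (SE 0.077, adjusted p = 0.0378). The exact two-sided permutation test gave p = 0.0571, and the gene no longer passed in 10 of the 20 alternatives. Ndufaf2, a relative of subunit Ndufa12 that acts late in assembly, had 11.6, 10.6, 11.5 and 13.5 FPKM in control 1 to 4 and 13.2, 12.7, 15.4 and 13.4 FPKM in ANG II 1 to 4. The groups overlapped at control 4, with a log2 fold change of 0.20 (SE 0.087, adjusted p = 0.111), and without that control it passed as higher, at 0.26. Of its 50-base words, 64.1% are shared with B230220B15Rik on the other strand. Ndufaf8, the partner of the hydroxylase Ndufaf5, had 32.5, 36.5, 30.7 and 27.6 FPKM in control 1 to 4 and 35.3, 32.5, 35 and 31.6 FPKM in ANG II 1 to 4, and the methyltransferase Ndufaf7 had 25, 22.3, 24.6 and 21.4 FPKM in control 1 to 4 and 23.1, 25.7, 23.7 and 20.7 FPKM in ANG II 1 to 4. Neither separated the groups, with log2 fold changes of 0.082 (SE 0.083) and -0.0061 (SE 0.078). Under median-of-ratios scaling Ndufaf2 and Ndufaf8 had -0.015 and -0.14. Ndufaf3 and Ndufaf5 had log2 fold changes of -0.10 and -0.037 and did not pass.

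**Figure D4:**
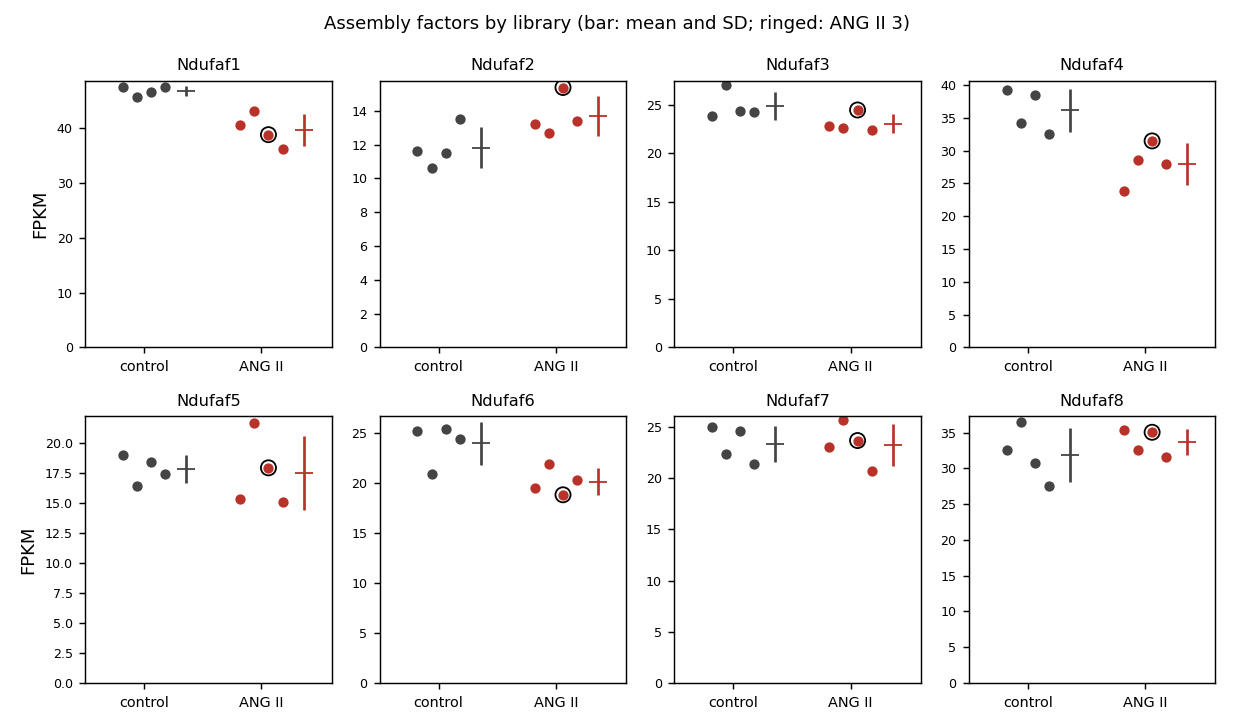
FPKM (y axes, each from 0) of the 8 assembly factors in each control and ANG II library (x axes), with the mean and SD of each group and ANG II 3 ringed. The groups are apart for Ndufaf1 and Ndufaf4 and overlap for the other 6.

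The number of members that passed depended on how the libraries were scaled. FPKM divides by all mapped fragments, and the mitochondrially encoded share of these differed between the groups, as given above. Median-of-ratios scaling, which sets the typical gene to no change, moved the median of all genes tested from 0.15 to 0.0040. With it, 23 of 40 subunits were lower (13.1% of all genes tested) and 0 were higher (14.6% of all genes), and 10 were called past the fold threshold (4.15% of all genes). The 12 of the deposited scale were among the 23, and the 11 that were added were Ndufa12, Ndufa13, Ndufa4, Ndufa5, Ndufb10, Ndufb11, Ndufb4, Ndufb5, Ndufb7, Ndufc1 and Ndufc2. The subunit median became -0.31, with 38 of the 40 below 0, and the core median -0.53. Of the assembly factors, 4 were lower, with Ndufaf3 added, and Ndufaf4 was called.

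Transcript length went with the size of the difference. The length used is the plain mean over all annotated transcripts of a gene, whether or not they are expressed. By it Ndufb7 has 2529 bases and Ndufs1 has 1290. Of the 17 subunits with a mean transcript length of 800 bases or more, 10 were lower in ANG II, with a median log2 fold change of -0.27, whereas 2 of the 23 shorter ones were lower, with a median of 0.023. Both short genes that passed, Ndufs3 and Ndufs7, are core subunits. Among the accessory subunits, 5 of 12 of 800 bases or more and 0 of 17 shorter ones were lower. Without ANG II 3, 11 of the 17 longer and 7 of the 23 shorter subunits were lower, with medians of -0.30 and -0.10, and 6 and 4 of the longer and shorter accessory ones. Under median-of-ratios scaling these counts were 15 of 17 and 8 of 23, and 10 of 12 and 5 of 17. On the deposited scale, over all genes tested with a mean of at least 1 FPKM, 766 of 11538 of 800 bases or more and 79 of 1316 shorter ones were lower, with medians of 0.19 and 0.17. Across the 40 subunits, which share libraries and are not independent, Pearson's r of log2 fold change with log2 length was -0.49 and Spearman's rho -0.55, and without ANG II 3 they were -0.41 and -0.47. Under median-of-ratios scaling r and rho were -0.50 and -0.57, and with a trend with length removed from each library, a step chosen after seeing the data, -0.55 and -0.63. With this trend removed the same 12 subunits were lower and 12 more joined them, while 14.7% of all genes were lower. The step also moved the median of all genes tested from 0.15 to -0.041. Of the 12 added, 11 were also added by median-of-ratios scaling, and the other was Ndufb2. Whether the removed trend or the shift of all genes added them was not tested. Relative to all genes tested the subunit median was -0.24 before the step and -0.22 after it.

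**Figure D5:**
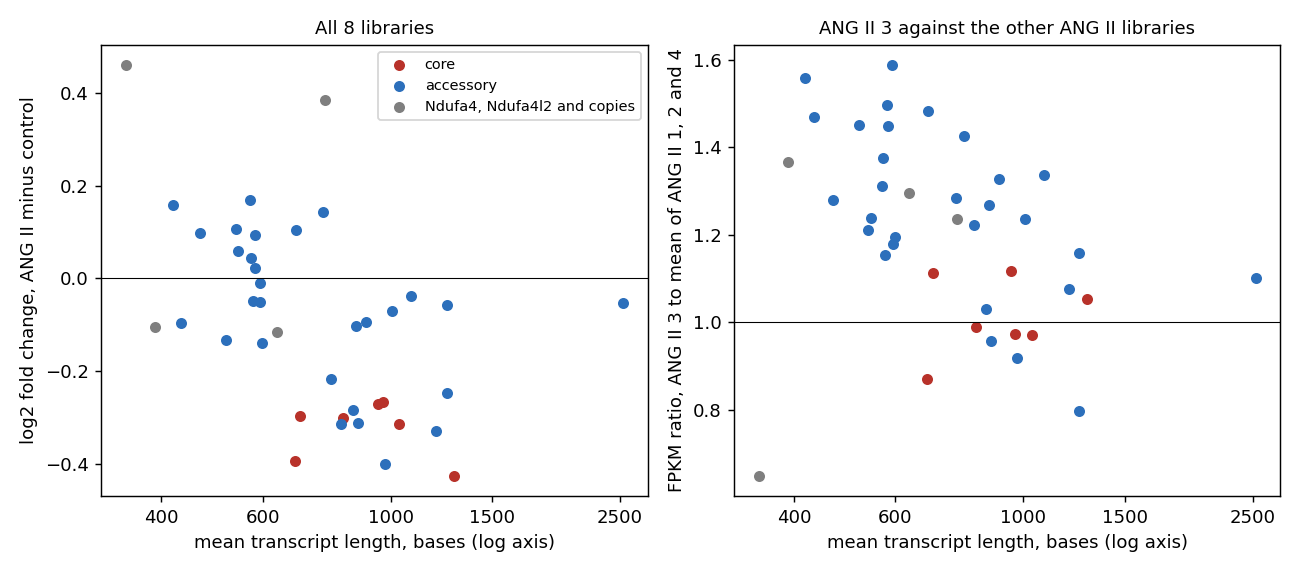
Left, log2 fold change (ANG II minus control) of the 40 tested subunits against mean transcript length in bases (log axis); right, the FPKM of ANG II 3 over the mean of ANG II 1, 2 and 4 for the same genes. The accessory genes under 800 bases lie between -0.22 and 0.17 on the left and above 1 on the right, while the 7 core genes lie below -0.2 on the left and between 0.8 and 1.2 on the right.

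The other parts of the enzyme and its surroundings were read in the same fit. Of the 7 mitochondrially encoded core subunits, 5 were lower and 0 higher, with a median log2 fold change of -0.42. Their summed level was 78071 to 83746 FPKM in the controls and 57255 to 67533 FPKM with ANG II. mt-Nd1, a membrane subunit at the quinone site, was called, with 27129, 26955, 27619 and 28208 FPKM in control 1 to 4 and 18749, 18834, 21894 and 18167 FPKM in ANG II 1 to 4 and a log2 fold change of -0.51 (SE 0.12, adjusted p = 0.00882). ANG II 3 lay highest among the treated libraries and below all controls. Without ANG II 3, 4 of the 7 were lower, and under median-of-ratios scaling 5 were lower, 5 of them called. The 2 that did not pass with all libraries were mt-Nd3 and mt-Nd6, named after their values were seen. Of 12 other assembly genes, 11 were found by name, and of these 3 were lower (Tmem70, Foxred1 and Dmac2, named after their values were seen) and 0 higher, with a median of -0.13. Of the 11, 2 were lower without ANG II 3, and under median-of-ratios scaling 8. Tmem70, which serves the assembly of both complex I and ATP synthase, had 96.7, 94.9, 98.6 and 94.7 FPKM in control 1 to 4 and 78.1, 78.9, 72.8 and 68.6 FPKM in ANG II 1 to 4, without overlap, and a log2 fold change of -0.37 (SE 0.053, adjusted p = 0.000693).

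Among 39 nuclear-encoded subunits of complexes II to V, 14 were lower and 0 higher, with a median log2 fold change of -0.090, beside -0.096 for the complex I subunits. 1 was called, Cox7a1, the muscle form of a complex IV subunit, with 381, 383, 372 and 344 FPKM in control 1 to 4 and 211, 217, 356 and 229 FPKM in ANG II 1 to 4 and a log2 fold change of -0.58 (SE 0.15, adjusted p = 0.0132). ANG II 3 lay above control 4, while the other ANG II libraries lay below all controls. Without ANG II 3, 19 of the 39 were lower, and under median-of-ratios scaling 23 were, 10 of them called, with a median of -0.32. Of 13 regulators of mitochondrial gene transcription, 2 were lower and 2 higher, with a median of -0.061. Ppargc1a, the coactivator PGC-1α of mitochondrial biogenesis, was called, with 73.8, 50.9, 68 and 95.7 FPKM in control 1 to 4 and 35.7, 34.6, 40.9 and 38.2 FPKM in ANG II 1 to 4. The ANG II libraries lay close together and below all controls, which were spread, with a log2 fold change of -0.90 (SE 0.16, adjusted p = 0.0018). The other lower one was Esrrg, an estrogen-related receptor, at -0.35 (adjusted p = 0.00955), and the higher ones were Pprc1 at 0.34 (adjusted p = 0.00816) and Yy1 at 0.28 (adjusted p = 0.00783), all 3 named after their values were seen. Under median-of-ratios scaling 0 of the 13 were higher and 7 were lower, 2 of them called.

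The levels of cell type markers moved in the same libraries, and their part in the complex I differences was not tested. Of the 15 cardiomyocyte markers, 6 were lower and 0 higher, and their median was -0.18. These counts were 7 and 1 without ANG II 3, and under median-of-ratios scaling 10 were lower and 0 higher, with a median of -0.41. Tnni3 and Myh6, a troponin and the main myosin of the adult mouse heart, were called at -0.58 (adjusted p = 0.00102) and -0.55 (adjusted p = 0.00126). On the deposited scale 10 of the 15 were below 0. Those above 0 were Casq2 (0.20), Mybpc3 (0.20), Tnnc1 (0.13), Ryr2 (0.053) and Actn2 (0.030), and none of them passed. Under median-of-ratios scaling all 15 were below 0. Of the 10 fibroblast markers, 9 were higher and 1 lower, and all 10 macrophage markers were higher, with medians of 1.26 and 1.41, and these counts were the same under median-of-ratios scaling. The collagen genes Col1a1, Col1a2 and Col3a1 had log2 fold changes of 3.25 (adjusted p = 3.1e-06), 3.13 (adjusted p = 1.9e-06) and 2.89 (adjusted p = 3.1e-06), and the macrophage genes Cd68, Cx3cr1 and C1qb had 1.71 (adjusted p = 1.85e-05), 1.70 (adjusted p = 0.000161) and 1.48 (adjusted p = 9.05e-06). Of the 10 endothelial markers, 4 were higher and 0 lower, with a median of 0.18, and under median-of-ratios scaling 1 was higher and 1 lower, with a median of -0.039. On the deposited scale 1 was called, Pecam1, at 0.52 (adjusted p = 0.000175), and 0 were called without ANG II 3 or under median-of-ratios scaling. The summed endothelial level was 585 to 645 FPKM in the controls and 662 to 738 FPKM with ANG II. Of the atrial markers, Bmp10 was at 0 in all controls, and 2 of the 4 tested were higher. Nppa, which encodes atrial natriuretic peptide and is also known to rise in ventricles under load, had 8.48, 11.1, 6.56 and 8.31 FPKM in control 1 to 4 and 152, 161, 109 and 142 FPKM in ANG II 1 to 4, without overlap, and a log2 fold change of 3.89 (SE 0.15, adjusted p = 1.21e-06). Sln, which encodes the calcium pump inhibitor sarcolipin, was called at 1.69 (adjusted p = 0.0291), but passed neither without ANG II 3 nor under median-of-ratios scaling. The myosin light chain genes Myl7 and Myl4 had log2 fold changes of 2.38 (adjusted p = 0.0557) and 2.23 (adjusted p = 0.0557). Without Nppa the atrial markers summed to 1.15 to 48.8 FPKM in the controls and 52.5 to 230.5 FPKM with ANG II, with ANG II 3 the highest. No defining marker of the other 4 lists was at 0 in all libraries.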

How the data were processed

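RNA-seq libraries of the left ventricle (4 control, 4 ANG II) were grouped by their labels. The authors deposited 1 table of FPKM values with 1 column a library, made from oligo(dT)-selected RNA. The submitters' processing notes name Bowtie2, HISAT and RSEM, while their roles, the genome build, the annotation and the use of strand are not given in the sources used here. The deposited FPKM values were used as they stood, from every column.

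Groups were compared with limma 3.58.1 (R 4.3.3), by lmFit and then eBayes with its trend option, on log2(FPKM + 1). The fit covered the 19364 genes whose mean reached 0.1 FPKM. P-values were two-sided and Benjamini-Hochberg adjusted over all of these genes. A gene passed at an adjusted p under 0.05 and was called when its absolute log2 fold change was also above 0.5. The study names these thresholds but no pseudocount, filter or base of the logarithm, and base 2 was taken. Fold changes on this scale understate the change of low genes. Single values were compared by an exact permutation test over the 70 allocations of 8 libraries, with Python 3.11.15, numpy 2.4.6, pandas 2.3.3 and scipy 1.17.1 (figures: matplotlib 3.10.9). The labels number the libraries without saying how each was obtained, so p-values measure the spread between these libraries. The limma script was tested on simulated data.

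Fragments were recovered from the steps of the FPKM values with mean transcript lengths of GENCODE M21 (GRCm38), in which 55141 of 55679 gene IDs were found. Of values under 60 fragments, 98.1% to 98.5% came out within 0.05 of a whole number, and voom was run on these fragments. This gave 14455654 to 16564828 fragments a library. Each tested member other than the copies Ndufs6b and Ndufb4c had between 36 and 14145 fragments in each library, a depth that bears on counting error only. Shared sequence was the share of a gene's 50-base words that occur in transcripts of other genes.

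Values are given for the core subunits, the 5 subunits and 3 assembly factors with the lowest and with the highest log2 fold change, Ndufa4 and its paralogue, every called member, members not tested, and, of each of the 9 other lists, at most 3 called genes with the largest absolute log2 fold change. Other members are named after their values were seen. 1 member is not reported here singly, and counts and sums keep it. The members and lists were chosen with earlier results of these data known. Alternatives were another pseudocount, filter, scaling or variance trend, a replicate block, and each library left out, and 4 more were added after seeing the data.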

Additional observations from a re-analysis of the deposited data

Results flagged for a closer look

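For each of the 48 tested members, the lowest and the highest of the 4 libraries were compared with the nearest other library in each group, and the gap was divided by the range of the group. Of the 96 groups of 4, 11 had a gap above Dixon's 95% critical value, and chance flags about 1 in 20 groups. ANG II 3 was the highest library in 8 of the 11. These were Ndufb8 (gap over range 0.953), Ndufa1 (0.929), Ndufa3 (0.907), Ndufs5 (0.898), Ndufs6 (0.896), Ndufb4 (0.877), Ndufa5 (0.855) and Ndufb11 (0.832), all of them accessory subunits. These 8 gaps come from 1 library and are not independent of each other. ANG II 2 was high for Ndufa10 (0.865, at 516 FPKM) and ANG II 1 for Ndufb2 (0.836, at 3.11 FPKM). In the control group, control 2 was high for Ndufaf3 (0.843, at 27 FPKM). None of the 7 core subunits had such a gap.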

How the results depend on the processing

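The 12 lower subunits passed in all 20 alternatives, 4 of which (the length trend removed, with and without ANG II 3, median-of-ratios scaling without ANG II 3, and voom) were chosen after seeing the data. Scaling changed how many others passed. In the order median-of-ratios, quantile, a common total without mitochondrially encoded and top 10 genes, median-of-ratios without ANG II 3, length trend removed, and length trend removed without ANG II 3, lower subunits numbered 23, 21, 16, 34, 24 and 29 and called lower subunits 10, 5, 3, 12, 7 and 6. Over all genes tested the same fits gave 13.1, 15.3, 8.93, 11.4, 14.7 and 12.3% lower and 4.15, 5.09, 2.77, 4.15, 4.32 and 4.27% called lower. In that order the subunit median was -0.31, -0.26, -0.23, -0.40, -0.26 and -0.34, and the assembly factor median -0.29, -0.30, -0.21, -0.31, -0.26 and -0.27. The subunit median relative to all genes tested was -0.24 and became -0.32 with a pseudocount of 0.1 FPKM, -0.15 with no filter, -0.29 with a filter at 1 FPKM, -0.31 with median-of-ratios, -0.28 with the common total, -0.40 with median-of-ratios without ANG II 3, -0.30 with the length trend removed without it, and -0.33 with voom. The cause was not tested, except that a filter changes which genes are compared.

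With each library left out in turn, lower subunits numbered 12 to 18 (18 without ANG II 3), higher ones 0 to 1 and called higher ones 0 to 1 (both Ndufa4l2, without control 2), called lower ones 0 each time, lower assembly factors 2 to 3 and higher ones 0 to 1 (Ndufaf2, without control 4). The subunit median ran from -0.19 to -0.055, the assembly factor median from -0.12 to -0.032 and the relative subunit median from -0.34 to -0.20. Ndufaf6 no longer passed in 10 alternatives, namely no filter, no variance trend, the block, voom, and without control 1, 3 or 4 or ANG II 1, 3 or 4.

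Same-numbered libraries did not deviate together (correlations -0.032 to 0.062, and only number 2 correlated best with its own), so the numbers were not taken as pairs. With the replicate number as a block, 12 subunits were lower and 1 higher (Ndufs6b), and 2 assembly factors were lower.

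None of the 15 members that passed changed sign in any alternative. Of the 14 tested members above 0, 12 fell below 0 with median-of-ratios (with and without ANG II 3), quantile, and the length trend removed without ANG II 3, 9 with the common total and with the length trend removed, and 6 without ANG II 3. With another library left out, 0 or 1 did so, and 0 to 4 of the 34 below 0 rose above it. For members that the rule names the values were these. With median-of-ratios, log2 fold changes became Ndufa1 -0.070, Ndufaf2 -0.015, Ndufaf8 -0.14, Ndufb3 -0.085 and Ndufb6 -0.057. With quantile, log2 fold changes became Ndufa1 -0.032, Ndufaf2 -0.045, Ndufaf8 -0.11, Ndufb3 -0.026 and Ndufb6 -0.00097. With the common total, log2 fold changes became Ndufaf8 -0.061 and Ndufb3 -0.0042. With median-of-ratios without ANG II 3, log2 fold changes became Ndufa1 -0.23, Ndufaf2 -0.072, Ndufaf8 -0.16, Ndufb3 -0.18 and Ndufb6 -0.16. With the length trend removed, log2 fold changes became Ndufaf8 -0.077 and Ndufb3 -0.044. With the length trend removed without ANG II 3, log2 fold changes became Ndufa1 -0.10, Ndufaf2 -0.042, Ndufaf8 -0.065, Ndufb3 -0.11 and Ndufb6 -0.062. With a library left out, Ndufa1 ran from -0.00098 to 0.22 and Ndufaf7 from -0.052 to 0.046. Low fragment numbers limit Ndufs6b, Ndufb4c, Ndufb2 and Ndufa11b, and 4 libraries a group limit all members.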
